A study of Mus musculus with 9 samples.

Results

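The beta2 integrins of leukocytes are described here in in vitro mouse monocyte subsets, through the 5 genes that encode their subunits: Itgal, Itgam, Itgax, Itgad and Itgb2. They were chosen by name, as the rows of the deposited gene table whose Ensembl identifier carries 1 of these symbols, and they make up 5 of the 46517 genes listed. The series holds 9 RNA sequencing libraries, 3 each of conventional (cMo), intermediate (intMo) and patrolling (pMo) monocytes, with libraries numbered 0, 1 and 2 in each subset. All cells were primary, wild-type and of the C57BL/6 strain, and all were obtained in vitro. According to the series title, patrolling cells were grown from bone marrow together with OP9-DLL1, a stromal feeder line that presents the Notch ligand DLL1. The design text of the series names the conventional subset in the place where the patrolling subset would stand, so the subsets follow the sample labels. No age, sex or culture time is given for the groups in the sources used here. Nothing in the labels ties the libraries of 1 subset to separate animals or cultures, so p-values measure only the spread between these libraries, which may be technical.

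Integrins are adhesion receptors made of 1 alpha and 1 beta chain. The shared beta2 chain, CD18 (Itgb2), pairs with 1 of 4 alpha chains. These are CD11a (Itgal), which binds ICAM proteins and holds leukocytes on the vessel wall, CD11b (Itgam), a complement and fibrinogen receptor of myeloid cells, CD11c (Itgax), another complement receptor that is often used to sort dendritic cells, and CD11d (Itgad), found on some tissue macrophages. An alpha chain reaches the surface only in a pair with CD18. In blood, the crawling of patrolling monocytes along the endothelium is known to use CD11a with CD18.

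In the GENCODE M21 annotation of GRCm38, all 5 are protein-coding genes on the plus strand. The 4 alpha subunit genes lie on chromosome 7 and Itgb2 on chromosome 10. Itgal (ENSMUSG00000030830.17) runs from 127296260 to 127335138, Itgam (ENSMUSG00000030786.17) from 128062640 to 128118491, Itgax (ENSMUSG00000030789.8) from 128129547 to 128150657 and Itgad (ENSMUSG00000070369.12) from 128154376 to 128223816. Itgb2 (ENSMUSG00000000290.12) runs from 77530252 to 77565708. Itgam, Itgax and Itgad are direct neighbours, with 11.1 kb between Itgam and Itgax and 3.7 kb between Itgax and Itgad, while Itgal lies 727.5 kb upstream of Itgam.

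The libraries held between 18455116 and 29985684 estimated counts, and all 5 subunit genes were among the 14059 genes with enough counts to test. Levels are given as CPM, counts scaled to the library total after TMM adjustment. The 7 conventional monocyte markers, such as Ly6c2 and Ccr2, summed to 5677 to 10382 CPM in cMo, 1100 to 2469 in intMo and 598 to 1093 in pMo. The sum of the 9 patrolling markers, such as Nr4a1 and Treml4, ran the other way. It was 572 to 687 CPM in cMo, 2282 to 2837 in intMo and 7545 to 9619 in pMo. Most of the intMo sum was Nr4a1, at 1535 to 2307 CPM. From cMo to intMo 7 of the 9 were higher and 1 lower. The lower gene was Spn, with 227 to 332 CPM in cMo and 57.2 to 129 in intMo. Libraries 0 stood apart from libraries 1 and 2 in all 3 subsets: within a subset, log2 CPM correlated at 0.951 to 0.975 with library 0 and at 0.986 to 0.99 without it. Among markers of other cells, the 9 granulocyte genes differed most between libraries of 1 subset, with a sum of 9296 CPM in cMo library 0 against 1867 and 2098 in the others, and of 319 CPM in intMo library 0 against 3471 and 3162. The 3 tested of 5 B lymphocyte markers had 1 gene higher in intMo than in cMo and no other call, in sums of 16.8 to 44.8 CPM, and none of the 4 tested of 7 mast cell and eosinophil markers was called, in sums of 8.7 to 39.7 CPM.

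Between the subsets, the subunits rose in different steps. From cMo to intMo, 2 of the 5 genes were higher by edgeR's quasi-likelihood test at an adjusted p under 0.05, Itgax and Itgad, where 14.0% of all tested genes were higher and 24.4% were called in either direction. In the step from intMo to pMo, 3 of 5 were higher, Itgal, Itgax and Itgb2, where 3.29% of all tested genes were higher and 4.99% were called. Between cMo and pMo, 4 of 5 were higher in pMo, all but Itgam, where 17.2% of all tested genes were higher and 33.1% were called. No subunit was lower in any of the 3 comparisons, where 10.4%, 1.69% and 15.9% of all tested genes were. The median log2 change over all tested genes was -0.008, -0.016 and 0.025 in the same order. Counting genes whose libraries did not overlap, 3 of 5 subunits were higher in intMo than in cMo (21.2% of all tested genes were higher and 20.1% lower), 3 of 5 in pMo than in intMo (14.8% and 12.9%) and 4 of 5 in pMo than in cMo (26.0% and 23.5%), and none was lower. The comparisons share their libraries, so they are not independent of each other.

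**Figure D1:**
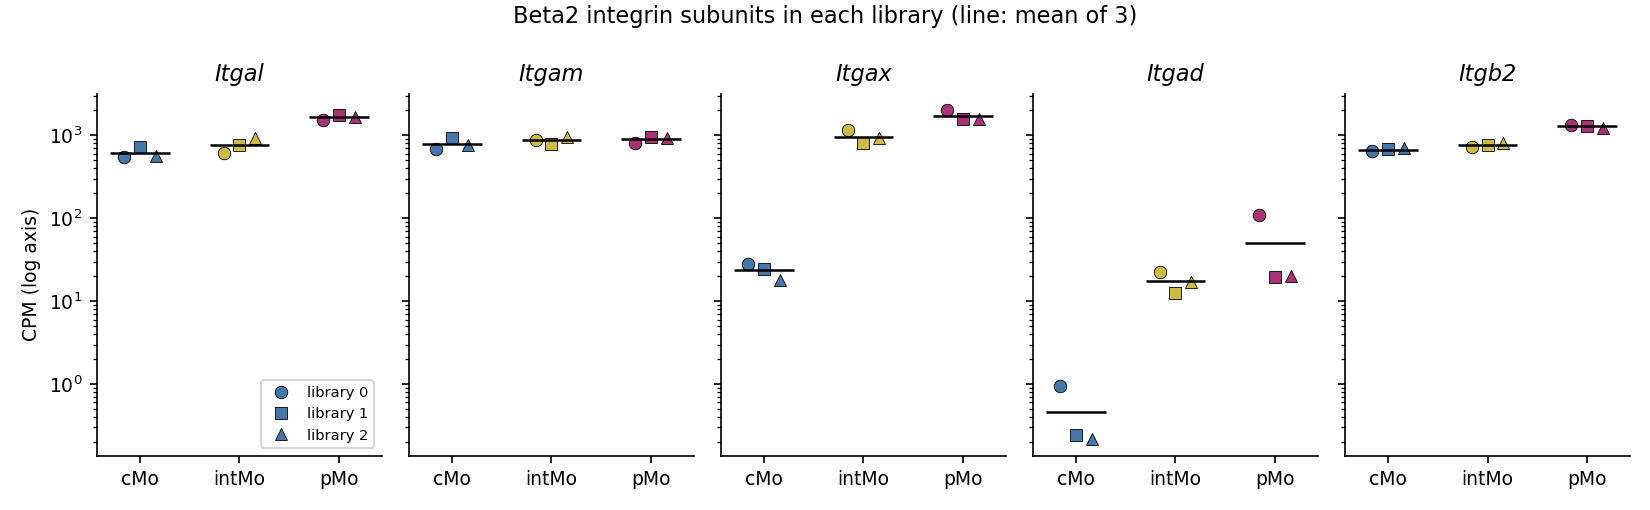
CPM of each beta2 integrin subunit gene in each of the 9 libraries, on a log axis, with 1 panel per gene, the marker shape giving the library number and the line the mean of 3 libraries. The 3 cMo libraries sit at 18 to 28.3 CPM for Itgax, far below the 803 to 2030 CPM of intMo and pMo, while the 9 Itgam values lie between 692 and 969 CPM.

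Itgb2, the common beta chain, had 643, 682 and 697 CPM in cMo libraries 0, 1 and 2. Its level was 730, 769 and 816 CPM in intMo and 1342, 1302 and 1237 CPM in pMo. The 3 subsets did not overlap, and the pMo libraries stood clear of all others. The group levels were 674 ± 28.0, 772 ± 43.1 and 1294 ± 53.2 CPM (SD, n = 3). Itgb2 was 1.92-fold higher in pMo than in cMo (log2 0.94 ± 0.11 SE, edgeR adjusted p = 0.00035) and 1.68-fold higher than in intMo (log2 0.75 ± 0.11, edgeR adjusted p = 0.00592). The step from cMo to intMo was not called (log2 0.20 ± 0.11, edgeR adjusted p = 0.213), although the intMo libraries all lay above the cMo libraries, as was so for 21.2% of tested genes. This beta chain varied least of the 5 between libraries, with a coefficient of variation of 4.11% to 5.58% in the 3 subsets. In bulk libraries, fewer cells of a type and less RNA per cell cannot be told apart.

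Itgal, the alpha chain CD11a, had 543, 718 and 560 CPM in the cMo libraries. It had 606, 762 and 943 CPM in intMo and 1542, 1772 and 1681 CPM in pMo. The cMo and intMo libraries overlapped, and every pMo library was above them. Group levels were 607 ± 96.7, 770 ± 169 and 1665 ± 116 CPM (SD, n = 3). Itgal was 2.74-fold higher in pMo than in cMo (log2 1.46 ± 0.18 SE, edgeR adjusted p = 0.000581) and 2.16-fold higher than in intMo (log2 1.11 ± 0.18, edgeR adjusted p = 0.0102). From cMo to intMo the log2 change was 0.34 ± 0.18 and was not called (edgeR adjusted p = 0.197). Without pMo library 1, the call against intMo was lost, at a log2 change of 1.07 (edgeR adjusted p = 0.0579). Lymphocytes also carry CD11a. The 10 T and NK lymphocyte markers summed to 3.87 to 17.1 CPM in cMo, 27.5 to 52.2 in intMo and 8.44 to 18.6 in pMo, with 5 of the 7 tested genes higher in intMo than in cMo and 4 higher in pMo than in cMo. Between intMo and pMo, 1 of them rose and 1 fell. Cd8a and Cd4 made up most of the intMo sum, with 15.2 to 17.5 and 5.31 to 32.3 CPM there, against 0.828 to 1.01 and 0.072 to 0.576 CPM in cMo. Cd3e, Cd3g, Ncr1 and Trac were at 0 in the 3 cMo libraries and did not exceed 0.904 CPM in any library. The part of lymphocytes in the Itgal values was not tested.

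Itgam, the alpha chain CD11b, was the only subunit with no call in any of the 3 comparisons. It had 692, 934 and 771 CPM in cMo, 880, 784 and 956 CPM in intMo and 805, 969 and 931 CPM in pMo. The 3 subsets overlapped throughout, with group levels of 799 ± 124, 873 ± 86.2 and 902 ± 85.5 CPM (SD, n = 3). The log2 changes were 0.13 ± 0.15 SE from cMo to intMo, 0.05 ± 0.15 from intMo to pMo and 0.17 ± 0.15 from cMo to pMo. Their edgeR adjusted p values were 0.565, 0.923 and 0.399, and the test of any difference over the 3 subsets gave an edgeR adjusted p of 0.615, where 33.0% of all tested genes were called by that test. The step from intMo to pMo changed sign with the scaling, with a log2 change of -0.01 with upper quartile scaling. Granulocytes carry CD11b too. The granulocyte markers summed to 1867 to 9296 CPM in cMo, 319 to 3471 in intMo and 412 to 2052 in pMo, and 3 of the 9 were lower in both intMo and pMo than in cMo. The part of granulocytes in the Itgam values was not tested.

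Itgax, the alpha chain CD11c, rose most between cMo and intMo. It had 28.3, 24.4 and 18 CPM in cMo, 1155, 803 and 931 CPM in intMo and 2030, 1574 and 1578 CPM in pMo. The 3 subsets did not overlap. Its group levels were 23.6 ± 5.16, 963 ± 178 and 1727 ± 262 CPM (SD, n = 3). Itgax was 40.8-fold higher in intMo than in cMo (log2 5.35 ± 0.24 SE, edgeR adjusted p = 6.64e-06) and 73.2-fold higher in pMo than in cMo (log2 6.19 ± 0.25, edgeR adjusted p = 1.61e-06). These calls were kept when each library was left out in turn and in 9 other settings. In pMo it was 1.79-fold higher than in intMo (log2 0.84 ± 0.20, edgeR adjusted p = 0.0478), a call near the threshold that held in 3 of 9 fits without 1 library and in 5 of 9 other settings, with adjusted p values from 0.0064 to 0.157.

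Dendritic cells also carry CD11c. The 8 dendritic cell markers summed to 58.5 to 64.0 CPM in cMo, 158 to 227 in intMo and 142 to 289 in pMo. From cMo to intMo, 6 of the 8 were higher, and from intMo to pMo 4 of 8 were lower and 0 higher, a comparison in which 3 of 5 beta2 integrin genes rose. Between cMo and pMo, 3 were higher and 3 lower. The list did not move as a whole. Dpp4, its most abundant gene, had 15.2 to 21.6 CPM in cMo, 76.1 to 123 in intMo and 119 to 240 in pMo. Ccr7 had 0.387 to 1.26, 7.22 to 15.8 and 9.05 to 24.6 CPM, and Zbtb46 0.576 to 1.04, 5.4 to 9.49 and 7.39 to 15.2 CPM, in the same order. Siglech had 3.35 to 4.57, 33.3 to 36.3 and 0.437 to 0.986 CPM, and Clec9a 0.504 to 1.08, 4.93 to 9.45 and 0.35 to 0.493 CPM. The part of dendritic cells in the Itgax values was not tested.

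Itgad, the alpha chain CD11d, was the scarcest subunit and the least even between libraries. It had 0.936, 0.246 and 0.216 CPM in the cMo libraries, from 26, 7 and 6 counts. It had 22.7, 12.7 and 17.0 CPM in intMo and 111, 19.5 and 20.3 CPM in pMo. All intMo and pMo libraries were above all cMo libraries, intMo and pMo overlapped, and pMo library 0 lay far above the other pair. In pMo the highest library had 5.7 times the lowest, and the coefficient of variation was 105%. Itgad was higher than in cMo by a log2 of 5.21 ± 0.89 SE in intMo (edgeR adjusted p = 0.00371) and of 6.75 ± 0.92 in pMo (edgeR adjusted p = 0.000913). The step from intMo to pMo was not called (log2 1.53 ± 0.69, edgeR adjusted p = 0.279). Without pMo library 0 the log2 change from cMo to pMo was 5.42 (edgeR adjusted p = 0.000397) and the step from intMo to pMo was 0.20 (edgeR adjusted p = 0.89). Without cMo library 0 the changes from cMo were 6.21 in intMo and 7.74 in pMo.

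Tissue macrophages also carry CD11d. The 9 macrophage markers summed to 169 to 395 CPM in cMo, 2365 to 4743 in intMo and 770 to 1298 in pMo. Of the 7 tested, 5 were higher and 2 lower than in cMo in both other subsets, and none was called from intMo to pMo. C1qb had 28.4 to 122 CPM in cMo, 1067 to 2135 in intMo and 352 to 598 in pMo, and Mertk 4.46 to 17.2, 200 to 397 and 98.7 to 108 CPM. The resident macrophage genes Timd4 and Vsig4 did not exceed 0.246 CPM in any library. The macrophage sum was highest in library 0 of intMo and of pMo, as Itgad was. In cMo it was lowest in library 0, at 169 CPM against 353 and 395, where Itgad was highest. The part of macrophages in the Itgad values was not tested.

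**Figure D2:**
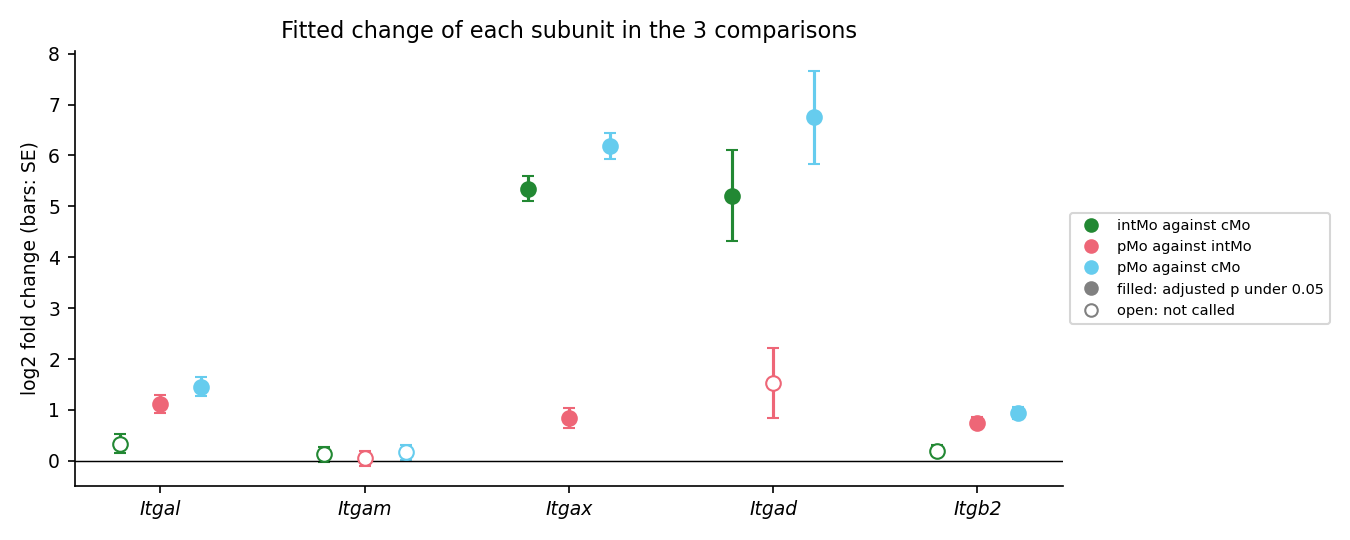
Log2 fold changes fitted by edgeR for each beta2 integrin subunit gene in the 3 pairwise comparisons, with bars of 1 SE, filled points where the adjusted p was under 0.05 and open points elsewhere. Itgax and Itgad changed by over 5 log2 units from cMo, Itgal and Itgb2 by 1.46 and 0.94 from cMo to pMo, and all 3 points of Itgam are open.

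Itgax and Itgad share stretches of identical sequence, so part of the reads of either gene could be assigned to the other. In the GENCODE M21 transcripts, 512 of the distinct 31-base words of Itgax also occur in Itgad, which is 10.7% of those of Itgax and 11.3% of those of Itgad. Itgal, Itgam and Itgb2 share none with any other subunit. The transcripts Itgax-201 (4046 bases) and Itgad-201 (3965 bases) hold 8 identical runs of at least 31 bases, of 34 to 188 bases and 752 bases in all, each within the coding sequence of both. The longest run is shown because reads that fall wholly within it carry no base that separates the genes. Capitals mark the 188 identical bases, and the lower-case flanks are the 15 bases on each side in each transcript, 5′ to 3′. In Itgax the run takes bases 1274 to 1461 of the transcript, in exons 11 to 13, between 128135612 and 128136062 on chromosome 7, and in Itgad bases 1351 to 1538, in exons 12 to 14, between 128189340 and 128189789.
Itgax: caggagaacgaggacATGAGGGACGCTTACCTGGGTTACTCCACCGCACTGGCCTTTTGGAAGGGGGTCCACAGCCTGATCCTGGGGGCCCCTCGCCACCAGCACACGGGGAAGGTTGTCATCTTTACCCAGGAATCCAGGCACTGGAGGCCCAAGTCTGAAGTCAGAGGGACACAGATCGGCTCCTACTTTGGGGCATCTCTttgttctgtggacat
Itgad: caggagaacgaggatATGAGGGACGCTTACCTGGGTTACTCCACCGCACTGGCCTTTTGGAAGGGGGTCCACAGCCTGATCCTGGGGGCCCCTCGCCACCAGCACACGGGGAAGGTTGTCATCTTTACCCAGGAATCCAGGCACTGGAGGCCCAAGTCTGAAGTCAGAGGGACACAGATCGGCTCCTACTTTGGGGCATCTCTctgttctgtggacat
The Itgad count was 1.04% to 3.27% of the Itgax count in the cMo libraries and 1.58% to 1.97% in intMo. In pMo it was 5.49% in library 0 and 1.24% and 1.29% in libraries 1 and 2. How many Itgad counts came from reads of such shared stretches was not tested.

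Itgad also holds another gene. Cox6a2, a muscle-type subunit of cytochrome oxidase, lies inside the Itgad span on the minus strand, from 128205435 to 128206387 on chromosome 7. It had 10.6, 0.457 and 0.324 CPM in cMo, 5.47, 1.15 and 1.86 CPM in intMo and 6.33, 1.05 and 0.83 CPM in pMo. Cox6a2 was thus highest in library 0 of each subset, as Itgad was. Over all libraries, though, it was highest in cMo library 0, where Itgad had only 0.936 CPM. The library kit keeps the strand, but whether the counting used it is not stated in the sources used here. Whether exons of the pair share sequence, and so whether their reads are fully separate, was not tested.

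The makeup of the alpha chain transcripts was compared within each library, on counts per kilobase of annotated exons, which does not depend on the scaling between libraries. Itgam made up 60.8%, 61.9% and 63.3% of the alpha total in the cMo libraries. It made up 34.2%, 35.3% and 35.8% in intMo and 19.0%, 24.3% and 23.9% in pMo. Its share was lower in each next subset with no overlap between libraries, while its own level was not called in any comparison. Itgax took 2.6%, 1.69% and 1.55% in cMo, 46.9%, 37.8% and 36.5% in intMo and 50.2%, 41.2% and 42.4% in pMo. The main alpha transcript was thus Itgam in all 3 cMo libraries and Itgax in all 6 others. Itgal took 35.1% to 36.5% in cMo, 18% to 27.0% in intMo and 27.9% to 34.0% in pMo, so its share was lowest in intMo. Itgad did not exceed 2.93% in any library, and its share was 0.0188% to 0.0905% in cMo, 0.637% to 0.981% in intMo and 0.545% to 2.93% in pMo.

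In an exact two-sided permutation test of 3 against 3 libraries, the smallest p possible is 0.1, and 12 of the 15 differences tested reached it, with a Benjamini-Hochberg value of 0.125, so the design cannot place any of them under 0.05. From cMo to pMo, the mean Itgam share went from 62.0 ± 1.24% to 22.4 ± 2.93% (SD, n = 3) and the mean Itgax share from 1.95 ± 0.569% to 44.6 ± 4.85%. The differences that did not reach 0.1 in the exact test were those of the Itgax share (p = 0.4), the Itgad share (p = 1.0) and the alpha to beta ratio (p = 0.7) from intMo to pMo. That ratio, the sum of the 4 alpha transcripts over Itgb2 per kilobase, was 1.08, 1.35 and 1.06 in cMo, 2.14, 1.75 and 1.99 in intMo and 1.92, 1.86 and 1.91 in pMo. It was higher in every intMo and pMo library than in any cMo library. Its absolute value rests on the gene lengths used and fell below 1 with the median length of coding transcripts.

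**Figure D3:**
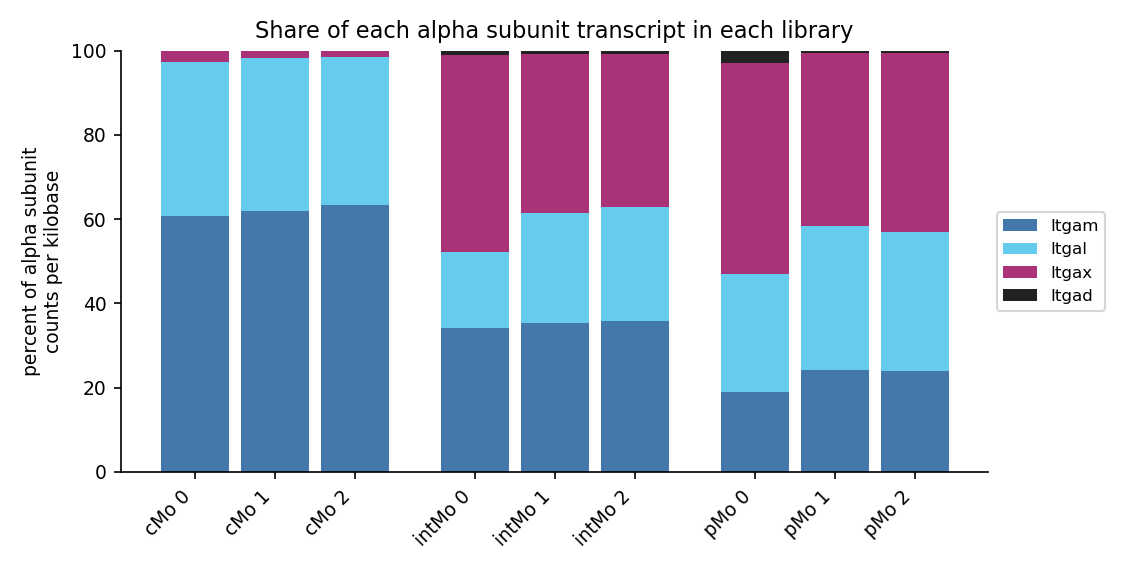
Stacked bars of the share of each alpha subunit gene in the summed counts per kilobase of Itgal, Itgam, Itgax and Itgad, in percent, for each of the 9 libraries. Itgam takes 60.8% to 63.3% of the bar in cMo and 19.0% to 24.3% in pMo, and Itgax 1.55% to 2.6% in cMo and 36.5% to 50.2% in the 6 other libraries.

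On the scale of CPM per kilobase, which allows levels of different genes to be set side by side, the order differed between subsets. In cMo, Itgb2 was highest at 221 ± 9.18 (SD, n = 3), followed by Itgam at 159 ± 24.6, Itgal at 92.4 ± 14.7, Itgax at 4.91 ± 1.07 and Itgad at 0.103 ± 0.0903. In intMo, Itgb2 stood at 253 ± 14.1, Itgax at 200 ± 37.1, Itgam at 174 ± 17.2, Itgal at 117 ± 25.7 and Itgad at 3.87 ± 1.11. The libraries of Itgax overlapped there with those of Itgb2 and with those of Itgam. In pMo, Itgb2 at 424 ± 17.4 and Itgax at 360 ± 54.6 were followed by Itgal at 254 ± 17.6, Itgam at 179 ± 17.0 and Itgad at 11.2 ± 11.7. Those of Itgb2 and Itgax overlapped in pMo as well. Itgal thus stood below Itgam in cMo and above it in pMo.

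Neighbouring genes of the locus that averaged at least 1 CPM did not show changes of the size seen for Itgax and Itgad. Within 200 kb on either side of the block from Itgam to Itgad, 15 other tested genes averaged at least 1 CPM. Scarcer neighbours were left out, here and around Itgal and Itgb2. From cMo to intMo, 2 were higher, Tgfb1i1 (log2 1.31 ± 0.37 SE) and Rgs10 (log2 0.72 ± 0.22), and none was called from intMo to pMo. From cMo to pMo, Tgfb1i1 was higher, Vkorc1, Bckdk and Pycard, the inflammasome adaptor, were lower by 0.43 to 0.80 on the log2 scale, and 11 were not called. Without the CPM minimum, 24.4% of all tested genes were called from cMo to intMo, 4.99% from intMo to pMo and 33.1% from cMo to pMo. The 15 log2 changes from cMo to pMo ran from -0.80 to 1.2, against 0.17 for Itgam, 6.19 for Itgax and 6.75 for Itgad. The change thus differed between Itgam and Itgax, whose gene bodies lie 11.1 kb apart.

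**Figure D4:**
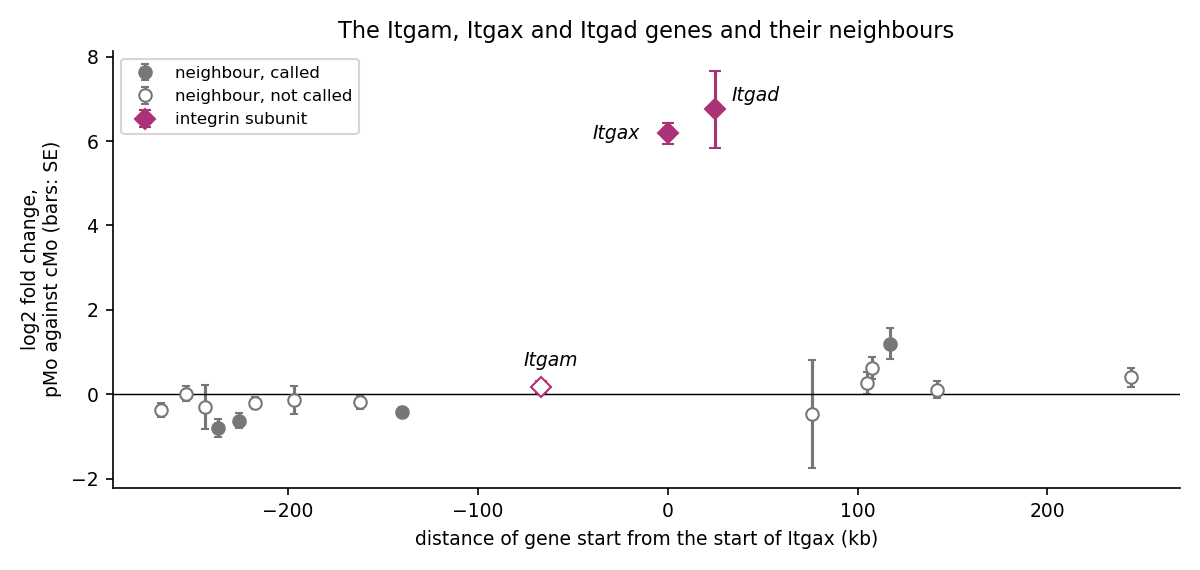
Log2 fold change from cMo to pMo, with bars of 1 SE, against the distance of each gene start from that of Itgax in kb. Shown are Itgam, Itgax, Itgad and the 15 tested genes within 200 kb of the block that averaged at least 1 CPM. Filled points mark calls at an adjusted p under 0.05. Itgax and Itgad lie at 6.19 and 6.75, and the 15 neighbours between -0.80 and 1.2.

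Around Itgal, 21 tested genes within 200 kb averaged at least 1 CPM, of which 4 were higher and 3 lower in pMo than in cMo. Of all tested genes, 17.2% were higher and 15.9% lower in that comparison, so these counts lie near the share over all genes. Spn, the sialoglycoprotein CD43 that marks patrolling monocytes, starts 164 kb upstream of Itgal and differed from it in its order over the subsets. Spn had 277 ± 52.9 CPM in cMo, 99.2 ± 37.5 in intMo and 551 ± 60.4 in pMo (SD, n = 3), so it was lowest in intMo. It was lower in intMo than in cMo (log2 -1.48 ± 0.28 SE, edgeR adjusted p = 0.00587), where Itgal was not called, and higher in pMo than in intMo (log2 2.47 ± 0.29, edgeR adjusted p = 0.00245). Of the 4 tested genes around Itgb2 that averaged at least 1 CPM, none was called from cMo to intMo or from intMo to pMo. From cMo to pMo, Ube2g2, a ubiquitin conjugating enzyme, was higher (log2 0.59 ± 0.15) and Sumo3, a ubiquitin-like modifier, lower (log2 -0.58 ± 0.12).

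Promoter sequences were at hand for Itgam and Itgax from RefSeq (GRCm38.p6), and not for Itgal, Itgad and Itgb2. They are shown because these neighbours differed in their change between the subsets. Each run covers 250 bases before the annotated start site, the start site and 29 bases after it, on the plus strand, 5′ to 3′, at chr7:128062390-128062669 for Itgam and chr7:128129300-128129579 for Itgax. Capitals mark matches, on either strand, to 4 short cores, given with the factors that bind them: GAGGAA (PU.1), TGTGGT (RUNX), GGGCGG (Sp1) and TGAGTCA (AP-1).
Itgam: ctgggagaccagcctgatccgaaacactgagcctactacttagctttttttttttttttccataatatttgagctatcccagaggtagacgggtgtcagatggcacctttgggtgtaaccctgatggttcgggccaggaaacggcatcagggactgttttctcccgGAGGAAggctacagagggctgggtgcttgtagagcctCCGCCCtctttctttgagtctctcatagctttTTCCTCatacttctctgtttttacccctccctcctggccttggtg
Itgax: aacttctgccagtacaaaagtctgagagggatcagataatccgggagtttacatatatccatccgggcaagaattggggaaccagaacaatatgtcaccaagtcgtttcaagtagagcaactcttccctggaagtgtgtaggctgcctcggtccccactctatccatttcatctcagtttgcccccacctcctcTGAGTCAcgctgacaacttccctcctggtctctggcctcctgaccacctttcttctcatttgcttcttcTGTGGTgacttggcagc
With the start site counted as 0, the Itgam window held GAGGAA at -84 to -79 on the plus strand and at -15 to -10 on the minus strand, and GGGCGG at -47 to -42 on the minus strand. The Itgax window held TGAGTCA at -56 to -50 and TGTGGT at 13 to 18, both on the plus strand. The windows shared none of the 4 motifs, and no marked matches overlapped. Of 32851 mouse promoters of the same length, 26.0% held GAGGAA, 15.6% TGTGGT, 34.7% GGGCGG and 4.94% TGAGTCA. These matches are a description of the letters only.

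The genes of the wider pathway are given by the role they play around these receptors, with calls from the same edgeR fit. Of all tested genes, 14.0% were higher and 10.4% lower in intMo than in cMo, and 3.29% and 1.69% in pMo than in intMo. From cMo to pMo the shares were 17.2% and 15.9%. The counts of every list below are to be read beside these shares. Ligands come first. Of 17 listed, 13 were tested, and 5 were higher and 3 lower in intMo than in cMo (median log2 0.48). From intMo to pMo 2 were higher and 1 lower (median -0.06), and from cMo to pMo 6 were higher and 1 lower (median 0.89). Icam1, the main ligand of CD11a, had 62.3, 77.0 and 74.8 CPM in cMo, 212, 159 and 175 CPM in intMo and 300, 305 and 287 CPM in pMo. It did not overlap between subsets and rose in both steps, by a log2 of 1.35 ± 0.14 SE (edgeR adjusted p = 0.000388) and 0.71 ± 0.14 (edgeR adjusted p = 0.0219). Vcam1, an endothelial and stromal adhesion molecule that CD11d can bind, was highest in intMo, at 158 ± 70.9 CPM against 3.79 ± 0.973 in cMo and 55.7 ± 3.85 in pMo (SD, n = 3), and was lower in pMo than in intMo (log2 -1.5 ± 0.29 SE, edgeR adjusted p = 0.0195). Ccn1, a matrix protein, had 0.288, 0 and 0 CPM in cMo and 6.6 to 14.1 CPM in the 6 other libraries. C3, the complement protein from which ligands of CD11b and CD11c are cut, was lower in intMo than in cMo (373 ± 147 against 885 ± 155 CPM, log2 -1.24 ± 0.29, edgeR adjusted p = 0.0142). With libraries 1 and 2 alone, 5 ligands were called from intMo to pMo in place of 3.

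Most tested stromal genes, like Vcam1 and Ccn1, were higher in intMo and pMo than in cMo. The 10 stromal feeder cell markers summed to 8.03 to 15.6 CPM in cMo, 157 to 520 in intMo and 173 to 355 in pMo, and 7 of the 8 tested were higher in intMo and in pMo than in cMo. From intMo to pMo none of the stromal markers was called, while Vcam1 fell. The stromal sum was highest in library 0 of intMo, as Vcam1 was at 239 CPM and Ccn1 at 14.1 CPM. In pMo it was also highest in library 0, at 355 CPM against 223 and 173, as Ccn1 was at 9.7 CPM. Vcam1 was lowest of the pMo libraries there, at 52.7 CPM. Cxcl12 had 2.2 to 3.63 CPM in cMo, 70.2 to 138 in intMo and 63.6 to 87.6 in pMo, and Col1a1 0.633 to 3.6, 20.5 to 110 and 23.9 to 82.4 CPM. Dcn was at 0 in all 9 libraries, and Lum did not exceed 0.0536 CPM. The part of feeder cell RNA in these ligand values was not tested.

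Of the genes that switch beta2 integrins on from inside the cell, 16 of 17 were tested. Compared with cMo, 3 were higher and 0 lower in intMo (median log2 0.25), and 9 were higher and 0 lower in pMo (median 0.56). Between intMo and pMo 4 rose and 0 fell (median 0.43), and with libraries 1 and 2 alone 8 were higher and 1 lower. Apbb1ip, the adaptor RIAM that links RAP1 to talin, had 191 ± 27.8, 229 ± 23.7 and 423 ± 7.83 CPM in cMo, intMo and pMo (SD, n = 3). It rose from intMo to pMo (log2 0.88 ± 0.14 SE, edgeR adjusted p = 0.00871), the step in which Itgal and Itgb2 rose. Rap1b, the GTPase upstream of it, rose in the same step (log2 0.68 ± 0.15, edgeR adjusted p = 0.0347). Rassf5, the RAP1 effector RAPL that binds CD11a, rose from cMo to intMo (log2 0.71 ± 0.12, edgeR adjusted p = 0.00337), as did Fyb, the adaptor ADAP (log2 1.36 ± 0.20, edgeR adjusted p = 0.00195). Talin 1 (Tln1), which binds the CD18 tail and was named after its values were seen, was not called in any of the 3 comparisons, at 1216 ± 388, 1415 ± 377 and 1830 ± 344 CPM. Coro1a, an actin regulator and the most abundant gene of the group, rose from intMo to pMo (log2 0.57 ± 0.13, edgeR adjusted p = 0.0347).

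All 15 listed inhibitors and turnover genes were tested. In intMo, 3 were higher than in cMo and 0 lower (median log2 0.14). Between intMo and pMo 3 rose and 1 fell (median 0.12), and from cMo to pMo 6 were higher and 0 lower (median 0.36). Rap1gap2, which turns RAP1 off, had 38.2 ± 8.24, 46.3 ± 12 and 152 ± 11.4 CPM in cMo, intMo and pMo (SD, n = 3), and its log2 change from intMo to pMo was 1.71 ± 0.22 SE (edgeR adjusted p = 0.00324). Cytip, which binds cytohesin 1 and limits CD11a adhesion, rose from cMo to intMo (log2 0.98 ± 0.19, edgeR adjusted p = 0.00619). Flna, the filamin that competes with talin for the CD18 tail, had its lowest mean in intMo, at 1323 ± 255 CPM. Its libraries overlapped there with those of cMo, and the difference was not called (log2 -0.61 ± 0.22, edgeR adjusted p = 0.0789). Flna rose to 2654 ± 386 CPM in pMo (log2 1.0 ± 0.23 from intMo, edgeR adjusted p = 0.0359). The phospholipase gene Pld1 rose and then fell, from 32.7 ± 3.64 to 50.2 ± 4.66 and 29.1 ± 4.09 CPM. Genes known to activate and genes known to restrain these integrins thus both held members that rose in pMo.

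All 20 genes of signalling from bound integrins were tested. In intMo 9 were higher and 1 lower than in cMo (median log2 0.21), and in pMo 11 were higher and 1 lower than in cMo (median 0.43). From intMo to pMo 2 were higher and 0 lower (median 0.23), namely the SRC family kinase Fgr and the focal adhesion kinase relative Ptk2b. Fgr had 201, 257 and 252 CPM in cMo, 454, 431 and 449 CPM in intMo and 921, 801 and 767 CPM in pMo. Ptk2b had 138 ± 20.6, 257 ± 23.5 and 506 ± 33.3 CPM in the same order (SD, n = 3). Neither overlapped between subsets, and both rose in each step by 0.89 to 0.98 on the log2 scale. Vcl, the talin-binding protein vinculin, was the gene that fell, from 89.3 ± 9.11 CPM in cMo to 21.3 ± 12 in intMo (log2 -2.06 ± 0.47 SE, edgeR adjusted p = 0.0132). Src itself was scarce, at 0.108 to 0.352 CPM in cMo and 0.467 to 2.36 CPM elsewhere.

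Of the 12 listed transcription factors known to act on CD11 and CD18 genes, 4 were higher and 2 lower in intMo than in cMo (median log2 -0.04), and 5 were higher and 1 lower in pMo than in cMo (median 0.04). From intMo to pMo 1 was higher and 0 lower (median 0.06), and with libraries 1 and 2 alone 3 were higher and 2 lower. Spi1, the myeloid factor PU.1, was the gene called in that step, with 428 ± 19.9, 439 ± 22.2 and 668 ± 12 CPM in cMo, intMo and pMo (SD, n = 3; log2 0.61 ± 0.11 SE, edgeR adjusted p = 0.013). Its order over the subsets was that of Itgb2 and Itgal, with no call from cMo to intMo. Runx3, which was named after its values were seen, had 61.0, 40.9 and 28.3 CPM in cMo, 368, 167 and 233 CPM in intMo and 237, 194 and 179 CPM in pMo. It rose from cMo to intMo (log2 2.56 ± 0.35, edgeR adjusted p = 0.00126), the step in which Itgax and Itgad rose. Pparg (log2 3.2 ± 0.46), Ets1 (2.8 ± 0.70) and Maf (2.51 ± 0.48) were also higher in that step. The 2 lower factors were Myb and Gabpa. Whether any factor of this list acted on the subunit genes here was not tested. Pparg and Ets1 rose from cMo to pMo by 4.15 ± 0.48 and 4.09 ± 0.74 on the log2 scale, and Myb, a progenitor factor, fell by 4.45.

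**Figure D5:**
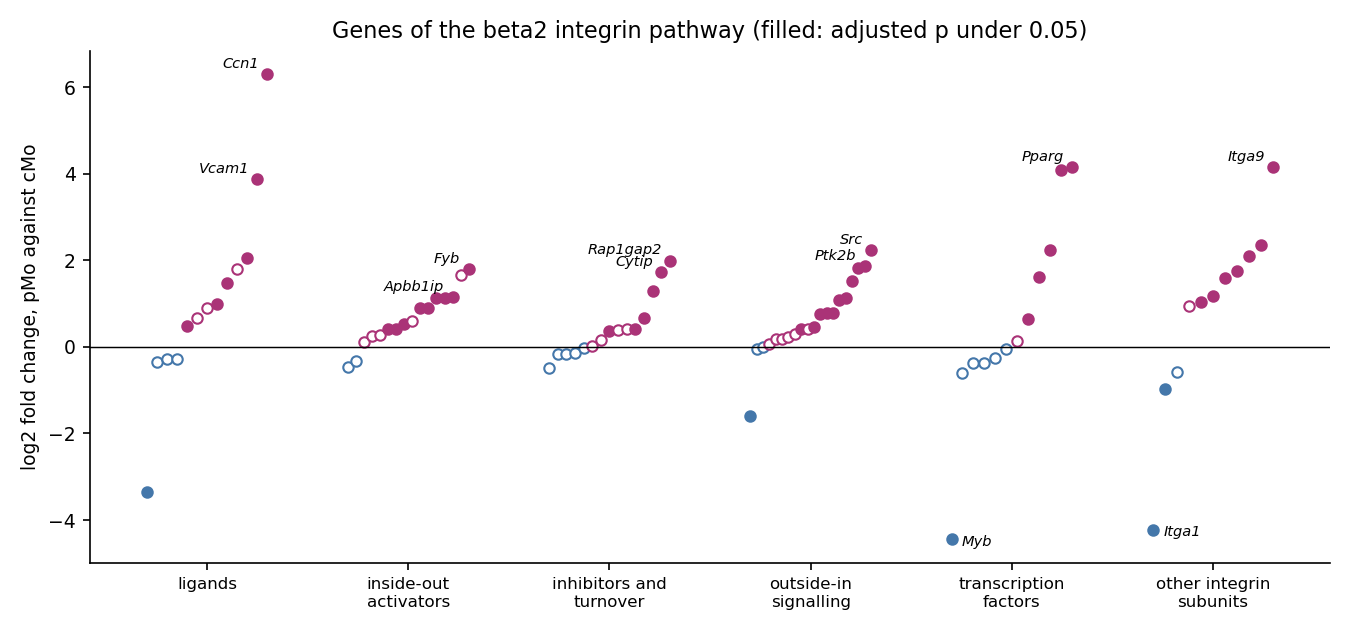
Log2 fold change from cMo to pMo of each tested gene of the 6 groups of the beta2 integrin pathway, ordered by value within a group, with filled points for calls at an adjusted p under 0.05. The called inside-out activators, 9 of 16, and inhibitors and turnover genes, 6 of 15, are all higher in pMo. Myb and Itga1 are the lowest points. Of all tested genes, 17.2% were higher and 15.9% lower.

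Other integrin subunits of leukocytes are given for comparison. Of 12 listed, 11 were tested, with 5 higher and 4 lower in intMo than in cMo, 2 higher and 2 lower in pMo than in intMo, and 7 higher and 2 lower in pMo than in cMo (medians 0.61, 0.36 and 1.18). With libraries 1 and 2 alone, 7 were called from intMo to pMo in place of 4. Some of them fell, such as Itga1, a collagen receptor chain, with 101 ± 6.24, 19.5 ± 2.68 and 5.43 ± 0.395 CPM in cMo, intMo and pMo (SD, n = 3). Itga9 rose from 13 ± 8.93 CPM in cMo to 406 ± 179 in intMo, Itgb3 from 6.57 ± 1.76 in intMo to 63.0 ± 14.3 in pMo, and Itga4 from 421 ± 150 in cMo to 1404 ± 251 in pMo.

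Genes whose log2 CPM followed each subunit most closely over the 9 libraries were picked by Pearson correlation. The candidates were the 7299 genes that averaged at least 20 CPM, with gene models (Gm and Rik names) and genes without a symbol left out. With Itgal these were Ralgapa2 (r = 0.994), Apbb1ip (0.984) and Slc44a2 (0.983). With Itgb2 they were Cblb (r = 0.992), Apoc2 (0.99) and Bcl6 (0.989). Cblb, a ubiquitin ligase, had mean levels of 21.2, 31.6 and 114 CPM in cMo, intMo and pMo, and Bcl6, a transcriptional repressor, 52.2, 65.9 and 274 CPM. With Itgax they were Dusp5 (r = 0.995), Lair1 (0.994) and Nod1 (0.993), and Dusp5, an ERK phosphatase, had 7.69, 152 and 358 CPM. With Itgad they were Myo1e (r = 0.985), Pik3cb (0.982) and Slc12a2 (0.980). With Itgam, which was not called in any comparison, they were Srgap2 (r = 0.972), Zfp148 (0.918) and Tbcel (0.910). The 9 points fall into 3 subsets, and these genes share the libraries and their depth, so the values describe likeness only.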

How the data were processed

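RNA of 9 in vitro monocyte libraries was extracted with RNAzol and prepared by a stranded mRNA kit (NEBNext Ultra II), per the labels' protocols. The values are estimated counts of each gene, deposited as 1 table that the authors made with kallisto 0.46.1 on mm10, per the submitters' processing notes. Of that run, the annotation, strand setting, index word length and summing of transcripts to genes are not stated in the sources used here. Between 25.5% and 27.4% of values per library were not whole, and values were rounded. Of 46517 genes, 46005 matched a GENCODE M21 symbol.

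Genes were kept by filterByExpr and scaled by TMM, and edgeR 4.0.16 in R 4.3.3 fitted all 9 libraries by subset with its robust quasi-likelihood F test. Calls had a Benjamini-Hochberg adjusted p under 0.05 over 14059 genes. Correlations used log2 CPM with a prior count of 2. Shares of alpha subunits used the union of annotated exons as length and exact permutation tests. The steps were tested on simulated data. Of simulated log2 changes of 1, 28%, 29% and 36% were recovered from cMo to intMo, intMo to pMo and cMo to pMo. Of changes of 2, 76%, 74% and 81% were. Unchanged genes made up 9 of 113, 2 of 105 and 6 of 123 calls. In the data, 24.4%, 4.99% and 33.1% of tested genes were called in these comparisons, so the rates hold for the simulated setting only. A gene that was not called in the data may still have changed.

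The library numbers are in the labels, which do not say what they share. Deviations from the subset means correlated at 0.588, 0.3 and 0.274 between intMo and pMo libraries of the same number 0, 1 and 2. However, intMo 1 correlated best with pMo 2 (0.403) and intMo 2 with pMo 1 (0.279). The main fit used no pairing, so its p-values from intMo to pMo do not take any into account. A fit with the library number as a replicate block is given below. Between cMo and the other subsets, same-numbered libraries correlated at -0.143 to 0.23 and were not taken as paired.

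The depth of 18455116 to 29985684 counts per library sets the precision of scarce genes such as Itgad, and the labels name no molecular identifiers, so counts are of reads and not of molecules. The alternatives were other scalings, DESeq2 1.42.0, other filters, fits of fewer libraries, a replicate block and other gene lengths.

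Genes outside the members were named by a rule. It took, per pathway list and comparison, the 2 called genes that changed most, among those with no overlap between the subsets compared, the most abundant gene of each list, the 3 most alike genes per subunit, and tested neighbours with a mean of at least 1 CPM. Exceptions are marked, and genes listed to complete a count of calls or as markers of other cells also stand outside it. Fn1, Thy1, Tyrobp and Spi1 stood both in a pathway list and in a marker list. The 5 members, the lists, the promoter motifs and the tests were chosen with earlier results of these data known.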

Additional observations from a re-analysis of the deposited data

How the results depend on the processing

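The calls from cMo to intMo and from cMo to pMo were the same for all 5 subunits in all 18 alternatives to each fit, that is 9 fits without 1 library and 9 other settings. From intMo to pMo, the calls of Itgb2 (higher) and of Itgam and Itgad (no call) also stayed the same in these 18. Itgal was lost without pMo library 1, and its log2 change without 1 library ran from 0.966 to 1.29. Itgax, at 0.84 from intMo to pMo, was not called with RLE scaling (0.836, adjusted p = 0.0546), upper quartile scaling (0.786, adjusted p = 0.0657), a minimum of 1 CPM in 3 libraries (0.818, adjusted p = 0.0519) or no scaling factors, a setting chosen after seeing the data (0.768, adjusted p = 0.0726). Without 1 library its log2 change ran from 0.717 to 0.995, and the call was lost without cMo 1, intMo 1, intMo 2, pMo 0, pMo 1 or pMo 2. The sign of the Itgam change from intMo to pMo, which was not called, turned with upper quartile scaling (-0.011) and no scaling factors (-0.032), and without 1 library it ran from -0.028 to 0.127, below 0 without intMo 1 and without pMo 1. The number of subunits called from intMo to pMo ran from 1 to 3 without 1 library, with 1 left without pMo 1. The cause of these changes was not tested.

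Over all genes, 3433 were called from cMo to intMo and 2213 with only these subsets in the fit. From intMo to pMo, 701 were called, against 1352 by DESeq2, 2424 with libraries 1 and 2 alone and 221 to 1107 without 1 library. The 701 were 463 higher and 238 lower, and with no scaling factors 383 were higher and 310 lower. DESeq2 gave 741 higher and 611 lower. Without intMo 0, 424 were higher and 433 lower, and with libraries 1 and 2 alone the balance turned, with 1053 higher and 1371 lower.

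With the library number as a replicate block, 3650, 836 and 4961 genes were called in the 3 comparisons against 3433, 701 and 4650, and no call of a subunit changed.

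The shares of the alpha subunits moved with the gene length. With the median length of coding transcripts, mean shares were 40.024% for Itgal in cMo, 57.213%, 27.921% and 17.325% for Itgam in cMo, intMo and pMo, and 2.724%, 48.679% and 52.223% for Itgax. With the longest coding transcript, Itgal had 39.677% in cMo, and Itgam 58.259% in cMo and 32.369% in intMo. The log2 ratio of alpha chains to Itgb2 was -1.687 in cMo, -0.712 in intMo and -0.714 in pMo with the median length, and 1.146 in intMo and 1.126 in pMo with the longest. The annotated Itgb2 transcripts include short partial ones, which lower the median length. The low counts of Itgad in cMo (6 to 26) limit how well its fold changes are known.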
